A study of Mus musculus with 20 samples.

Results

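The regions described here are the introns that lie wholly upstream of the start codon, in the 5' untranslated region (5' UTR), of the transcript under which a deposited splicing table lists them. Members were taken by position in the GENCODE M21 annotation and by depth: at least 10 reads, spliced plus unspliced, in at least 1 of the 2 conditions. The rule used no splicing value. It gave 750 introns in 655 genes, out of 68794 introns of 8397 transcripts (1 transcript a gene) in the table and 11912 introns that reach the same depth. A further 2373 introns of 5' UTRs had fewer reads and were left out. The reads come from murine erythroleukemia (MEL) cells, an established mouse line of transformed red cell precursors, here of wild-type genotype. In the uninduced group the cells received no inducer; in the induced group they were kept in 2% DMSO for 5 days, which starts erythroid differentiation. RNA was taken from the chromatin fraction of both groups and depleted of ribosomal and of polyadenylated RNA, and was read as long molecules on PacBio RSII and Sequel instruments. Per the labels each group holds 4 libraries, 2 biological replicates on each instrument, but the table gives 1 summed line per condition. Each condition is therefore called a pool. No spread between replicates can be given, intervals cover counting error only, and every test compares counts of reads from these pools, not 2 conditions. The 9 members in erythroid genes had these reads uninduced and induced: 0 and 453 in Hbb-bs, 7 and 297 in Alas2, 12 and 189 in Tfrc, 0 and 76 in Slc4a1, 17 and 57 in Alad, 4 and 14 in Sptb, 23 and 33 in Gata1, 38 and 36 in Ppox, and 342 and 1 in Car1. All members with 10 reads or more in the pool held 20468 and 11492 reads. These are given as a description, since the rule selects on depth and Hbb-bs, Alas2, Slc4a1, Sptb and Car1 reach 10 reads in just 1 pool.

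The 5' UTR is the stretch of a messenger RNA that ribosomes scan before they reach the start codon. An intron there is removed by the same spliceosome as any other, but it separates no coding exons, so its retention leaves the protein sequence as it is and adds its bases to the leader. Such introns are usually the first intron of the gene, lie close to the promoter and tend to be long; many genes also have other promoters inside them, so that some transcripts start downstream and never hold the intron.

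The splicing of an intron was measured as co-transcriptional splicing efficiency (coSE), the reads spliced across the intron divided by spliced plus unspliced reads. A coSE of 1 means that every read was spliced, and a coSE of 0 that none was. Reads can still be attached to polymerase, so an unspliced read need not stay unspliced. Of the 750 members, 642 had 10 or more reads in the uninduced pool, 432 in the induced pool and 324 in both. The median depth of these was 17 reads uninduced and 16 induced; 3 counts at these depths, the most that a count of 0 allows, correspond to a coSE of 17.65% and 18.75%. The depth limit did not fall on a flat part of the scale: pooled coSE was 0.821 in the 91 introns with 8 reads in the deeper pool, 0.840 in the 82 with 9, 0.855 in the 78 with 10 and 0.869 in the 69 with 11.

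The members are mostly first introns of long reach. By number in the transcript, 607 were intron 1, 113 intron 2, 23 intron 3, 5 intron 4 and 2 intron 5. In 573 genes there was 1 member, in 72 genes 2, and in 10 genes 3 or more. The median length was 2395 nt, from 68 nt in Tlcd1 to 122420 nt in the second intron of Mbnl1, which encodes the splicing regulator muscleblind. The 2733 coding introns of the same genes that reach the same depth had a median of 1061 nt, and the 1054 first introns of other genes whose first intron is coding had 2112 nt. The 5' splice site of members lay a median of 139 nt from the annotated transcript start, against 701 nt for the coding introns and 179 nt for the coding first introns. From the end of the intron to the start codon the median distance along the spliced RNA was 31 nt, 158 members ended within 10 nt of it, and 20 ended exactly at it. Annotation is less uniform for members: 39.87% of them were in every annotated transcript of the gene that spans them (299 introns, called constitutive here), against 70.4% of coding introns of the same genes and 58.06% of coding first introns. Another annotated transcript started inside 44.13% of members, against 9.294% and 27.99%. A total of 67 members (8.933%) lay inside an exon of another transcript of the gene, so that part of their unspliced reads may belong to that transcript.

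Splice site sequences were deposited for 405 members. They are shown for the introns on which the comparisons below turn: 3 with nearly no spliced reads (Rpl41, Hbb-bs, Pttg1), a gene whose neighbouring 5' UTR introns lie at opposite ends of the scale (Add2), a gene with 3 members of unlike coSE (Cenpi), the deepest well-spliced members (Eef1a1, Rps19, Ubb), a gene of a kinase that acts on splicing factors (Clk1), Alas2 with no intermediates among its reads, and the blood group gene Kel. Each is written 5' to 3' on the strand of the gene. The 5' splice site is the last 3 bases of the exon and the first 6 of the intron, and the 3' splice site is the last 20 bases of the intron and the first 3 of the exon. Capitals mark the first 2 and the last 2 bases of the intron.
Rpl41 intron 1, 5' splice site: ttgGTtagt
Rpl41 intron 1, 3' splice site: ttccctctttctctctagAGact
Hbb-bs intron 1, 5' splice site: ctgGTaagg
Hbb-bs intron 1, 3' splice site: gtgttgactcacaaccccAGaaa
Pttg1 intron 1, 5' splice site: tcgGTgagt
Pttg1 intron 1, 3' splice site: tattcaggtctctcccttAGagt
Add2 intron 1, 5' splice site: tagGTgagt
Add2 intron 1, 3' splice site: tttttttttttttttagcAGttc
Add2 intron 2, 5' splice site: ctgGTaagt
Add2 intron 2, 3' splice site: accctgtccttcttctacAGggt
Cenpi intron 1, 5' splice site: tagGTgagt
Cenpi intron 2, 5' splice site: gaaGTcagt
Cenpi intron 3, 5' splice site: ctgGTaagt
Eef1a1 intron 1, 5' splice site: cagGTgagg
Rps19 intron 1, 5' splice site: acgGTgagt
Rps19 intron 1, 3' splice site: catgcttgtcccttcctcAGatg
Ubb intron 1, 5' splice site: cagGTattt
Clk1 intron 1, 5' splice site: aagGTaaga
Clk1 intron 1, 3' splice site: gtaaaatttgtctttcatAGatg
Alas2 intron 1, 5' splice site: cagGTaaga
Kel intron 1, 5' splice site: atgGCaagt

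Of these 405 introns, 402 began with GT and 3 with GC, and all ended with AG. In Rps19 the start codon ATG follows the AG directly; 13 of the 20 members that end at the start codon have a deposited sequence, and all 13 show ATG in the last 3 bases. The first 5 intron bases were GTGAG in 38.02% of members, 24.37% of coding introns of the same genes and 42.49% of coding first introns. GTAAG was at 25.93%, 31.17% and 20.84%. The exon ended with G in 90.12%, 80.39% and 86.75%. The most common 9 bases of members were gagGTgagg and cagGTaagt, with 10 introns each, while aagGTgagt led the coding introns with 28 and atgGTgagt led the coding first introns with 22 (3.554%). The deposited splice site scores, which have no unit, had medians of 9.14 at the 5' and 8.87 at the 3' splice site in members, 8.83 and 8.575 in coding introns, and 8.80 and 9.17 in coding first introns. For scale, the 3 introns that begin with GC scored 3.26 (Kel), 1.84 (Arel1 intron 1) and 2.72 (Cyp4f13). The median GC content was 46.32%, 42.96% and 47.26%. The sequences above differ in score: Rpl41 has 4.82 and 2.79 at its splice sites, Hbb-bs 9.68 and 5.48, Pttg1 11.11 and 6.93, and Rps19 11.45 and 10.12.

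Most members were spliced in nearly every read, and a small tail was hardly spliced at all. Uninduced, the median coSE of the 642 members was 0.944 with quartiles of 0.820 and 1, the same median as the 2277 coding introns of the same genes (0.944) and below that of 931 coding first introns (0.967). In 228 members (35.5%) every read was spliced. The means were 0.843 in members, 0.878 in coding introns and 0.903 in coding first introns. The sets differed more in the tail: 33 members (5.14%, 95% Wilson interval 3.68 to 7.13) had a coSE under 0.2, against 18 coding introns (0.791%, 0.501 to 1.25) and 10 coding first introns (1.07%); over all introns of the table it was 212 of 9982 (2.12%). In the induced pool 20 of 432 members (4.63%, 3.02 to 7.04) were under 0.2, against 19 of 1482 coding introns (1.28%) and 10 of 625 coding first introns (1.6%), and 116 of 6333 introns of the table (1.83%). The induced medians were 0.968, 0.956 and 1. With no minimum on reads the share of members under 0.2 was higher in both pools. Introns of 1 gene share reads, so these intervals treat as independent what is only partly so, and the difference between the sets was not tested.

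**Figure D1:**
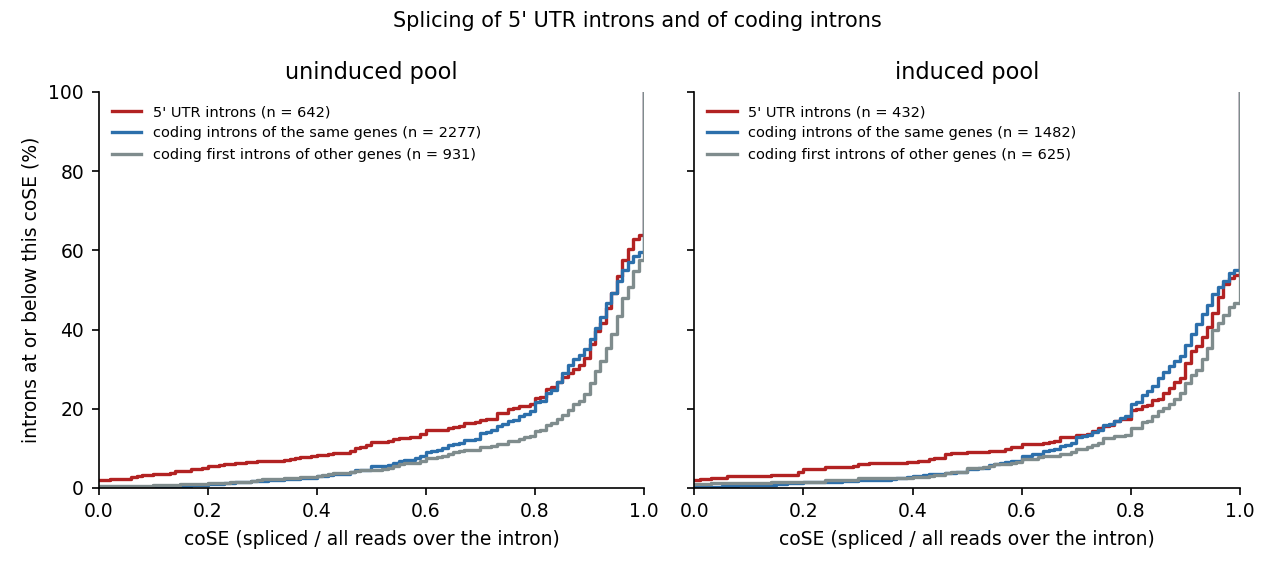
Cumulative share of introns (y axis, percent) at or below each coSE (x axis, from 0 to 1) for 5' UTR introns, coding introns of the same genes and coding first introns of other genes, in the uninduced and the induced pool. At low coSE the line of the 5' UTR introns runs above the others, with 5.14% uninduced and 4.63% induced under 0.2, while the medians of 5' UTR introns and coding introns of the same genes are both 0.944 uninduced.

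Low values were more frequent among members missing from some annotated transcript that spans them. A transcript that starts inside an intron does not span it, so a constitutive intron can still be absent from other transcripts, as in Hbb-bs. Uninduced, the 253 constitutive members had a median coSE of 0.958 and a mean of 0.897, with 4 under 0.2 (1.58%). The 389 members missing from some spanning transcript had 0.933 and 0.808, with 29 under 0.2 (7.46%). The mean of constitutive members is close to the 0.898 of the 1578 constitutive coding introns of the same genes. Of the latter 3 (0.190%) were under 0.2, so the share in the low tail was still higher in constitutive members. Induced, it was 3 of 169 (1.78%) against 1 of 1015 (0.0985%). These differences were not tested. Members inside an exon of another transcript had the lowest values, with a median of 0.788 and a mean of 0.633 over 64 introns, 11 of them under 0.2. Coding introns of the same genes followed the same order. The mean was 0.833 over the 699 missing from some spanning transcript, with 15 under 0.2 (2.15%), and 0.715 over the 204 inside an exon, with 10. In the induced pool the means were 0.920 for 169 constitutive members, 0.839 for the 263 others and 0.705 for the 33 inside an exon. An unspliced read of an intron that only some transcripts hold can come from a transcript without it; the part this plays was not tested. Where another annotated transcript starts inside the member, the mean was 0.855 with 12 of 292 introns under 0.2, and where none does it was 0.833 with 21 of 350.

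Short members had the lowest coSE. Uninduced, the median coSE was 0.455 over 15 members of at most 100 nt, 0.772 over 102 of up to 500 nt, 0.900 over 84 of up to 1000 nt, 0.944 over 241 of up to 5000 nt and 1 over 200 longer ones, each class starting where the one before ends. Coding introns of the same genes had medians of 0.880, 0.857, 0.926, 0.974 and 1 in the same classes (126, 521, 431, 981 and 218 introns). In the 3 shorter classes the mean of members was 0.382, 0.675 and 0.760, against 0.821, 0.794 and 0.857 for coding introns; in the longest class it was 0.936 against 0.956. Among constitutive introns alone the means were closer uninduced, with 0.780 over 32 members against 0.834 over 346 coding introns in the second class and 0.858 over 38 against 0.881 over 306 in the next; induced they were 0.737 over 18 against 0.873 over 268, and 0.832 over 24 against 0.902 over 191. Only 2 of the 15 shortest members are constitutive. Coding first introns had medians of 0.833 (30 introns) and 0.907 (148) in the first and second class. The induced pool held 6 members of at most 100 nt, with a median of 0.708, and 61 of up to 500 nt, with a median of 0.833, against 0.810 and 0.893 in 97 and 392 coding introns. As a description across members, which share libraries and in part genes, Spearman's correlation of coSE with length was 0.414 uninduced (642 introns) and 0.355 induced (432), and in coding introns 0.340 (2277) and 0.365. With GC content it was -0.182 over 373 members and with the 5' splice site score 0.0067. The shortest member, the first intron of Tlcd1 (68 nt), had 0 of 10 reads spliced, and the longest, in Mbnl1, had 11 of 12.

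**Figure D2:**
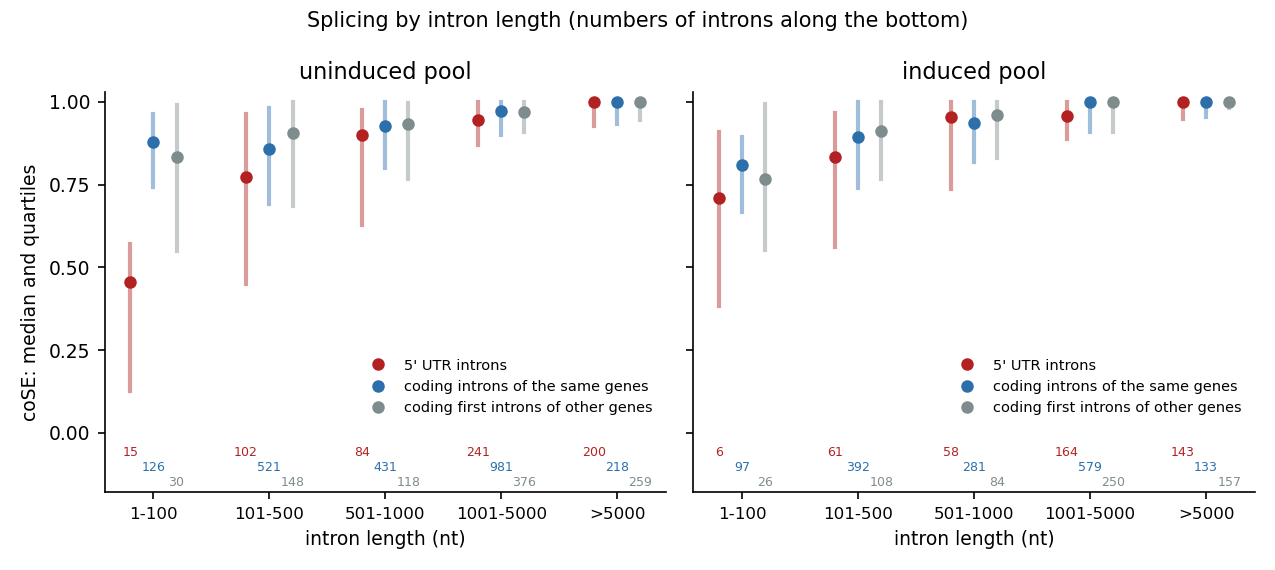
Median coSE (points; y axis, 0 to 1) with quartiles (bars) by intron length class (x axis, nt) for 5' UTR introns, coding introns of the same genes and coding first introns of other genes in each pool. The medians of 5' UTR introns rise from 0.455 at up to 100 nt to 1 above 5000 nt in the uninduced pool, and lie furthest from those of the coding introns in the short classes.

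By position in the leader the medians lay closer together. Uninduced, the median was 0.947 over 520 members that are intron 1, 0.923 over 97 that are intron 2 and 0.929 over 25 that are intron 3 to 5. The 140 members that end within 10 nt of the start codon had a median of 0.957, a mean of 0.877 and 4 introns under 0.2. The 141 that end more than 100 nt from it had 0.9, 0.759 and 15. In the induced pool the means of the same classes were 0.919 over 92 introns and 0.819 over 95, with 0 and 7 under 0.2. The 20 introns that end exactly at the start codon had a median of 0.963, and 2 of them were under 0.5.

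The main comparison set each member against the coding introns of its own transcript, which come from the same gene and libraries. Coverage was not matched: members had a median of 1.69 times the mean reads of these coding introns uninduced and 1.83 times induced. Reads of the coding introns can also come from transcripts of the gene that never hold the member. The spliced and unspliced reads of the intron were compared with the summed reads of the coding introns by Fisher's exact test (two-sided), with Benjamini-Hochberg adjustment over all introns of the table that could be tested in that pool; a call is an adjusted p under 0.05. Reads of 1 molecule cover several introns, so the counts are not fully independent and the p-values are likely too small. Uninduced, 42 of 521 members (8.06%) were called lower than their coding introns, where the same test called 4.42% of all introns lower. A further 22 members (4.22%) were called higher, against 1.66% of all introns. Induced, 26 of 342 (7.60%) were lower and 17 (4.97%) higher, against 4.14% and 1.64% of all introns. Unadjusted p-values under 0.05 were found for 109 (20.9%) and 74 (21.6%) members, against 15.0% and 15.3% of all introns. The shares called were thus above those of all introns on both sides. Against the unweighted mean coSE of their coding introns, 273 members lay above, 190 below and 58 level uninduced, and 180, 110 and 52 induced. Of all introns tested, 5222 lay above and 3515 below uninduced, and 3244 and 2065 induced. A coSE more than 0.5 below the coding introns was found in 25 and 16 members.

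The low calls of constitutive members were close to the share over all introns. Uninduced, 7 of 210 (3.33%) were lower and 12 (5.71%) higher. Against the mean coSE of the coding introns 118 lay above, 62 below and 30 level. Induced, 6 of 129 (4.65%) were lower and 5 (3.88%) higher, with 81, 23 and 25. Of the members missing from some spanning transcript, 35 of 311 (11.3%) were lower and 10 (3.22%) higher, and induced 20 of 213 (9.39%) and 12 (5.63%). The difference between these sets was not tested. Coding first introns of other genes, tested in the same way against the remaining coding introns of their transcripts, gave 18 of 796 lower (2.26%) and 33 higher (4.15%) uninduced, and 11 and 12 of 526 induced. Over both pools 55 members in 53 genes were called lower, of which 11 were constitutive, 9 lay inside an exon, 28 were in just 1 annotated transcript and 22 were at most 500 nt long (median length 833 nt). The 32 called higher were in 28 genes, 16 were constitutive, 2 were at most 500 nt long, and the median length was 3356 nt. The pools shared 13 low calls, 30.95% of the uninduced and 50% of the induced ones, and 7 high calls, 31.82% and 41.18%. Many of the others could not be tested in both pools: of the low calls 24 of the 42 uninduced and 18 of the 26 induced ones were, and of the high calls 15 of 22 and 14 of 17. No member was called in opposite directions.

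**Figure D3:**
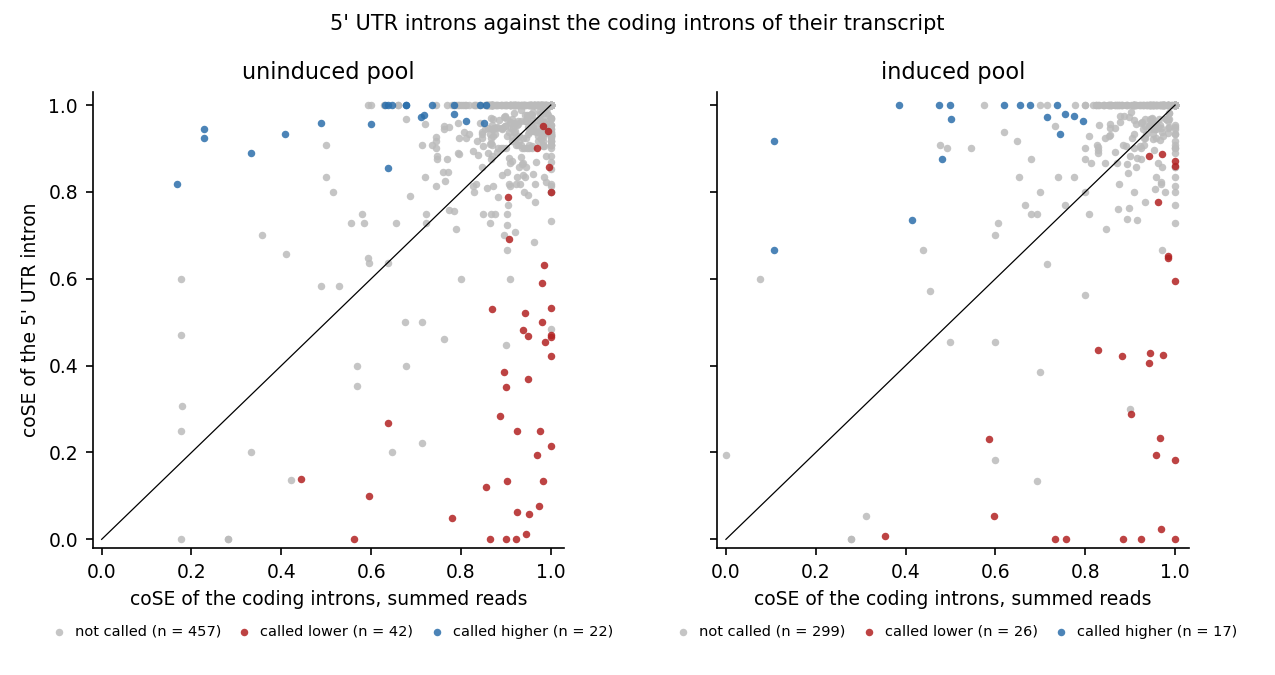
coSE of each 5' UTR intron (y axis) against the coSE of the summed reads of the coding introns of its transcript (x axis), 1 point an intron, in the uninduced pool (521 introns) and the induced pool (342), with the line of equal values. Red points mark introns called lower (42 and 26) and blue points introns called higher (22 and 17) by Fisher's exact test; most points cluster at the upper right.

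Among the introns called lower, the deepest was that of Rpl41, a small protein of the large ribosomal subunit. Its first intron (chr10:128548972-128549087, 116 nt, GRCm38) had 8 of 603 reads spliced uninduced, a coSE of 0.0133 (Wilson interval 0.0067 to 0.026), and 0 of 117 induced, while the coding introns of the gene were at 0.945 over 1181 reads and 0.758 (adjusted exact p = 8.94e-46 induced). It is in 2 of 7 annotated transcripts that span it and lies inside an exon of 2 others. Its 3' splice site has the lowest score of the 3' splice sites printed above. Without Rpl41 and Hbb-bs the pooled share of spliced reads over all members moved from 85.9% to 88.5% uninduced and from 83.1% to 87.5% induced.

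Hbb-bs encodes an adult beta-globin chain and is one of the genes that erythroid differentiation switches on. Its 5' UTR intron (chr7:103827887-103828011, 125 nt) is annotated in the 1 transcript that spans it, and another transcript starts inside it. It had no reads in the uninduced pool and 3 of 453 spliced in the induced pool, a coSE of 0.00662, against 0.353 over 753 reads of its coding introns (adjusted exact p = 4.15e-55). Reads of Hbb-bs can be shared with its near-identical neighbour copy, so this count is uncertain, as are those of ribosomal protein genes with processed copies and of the paralog pairs named below.

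Kidins220, Add2 and Pttg1 were called lower in both pools. Kidins220, a membrane scaffold for neurotrophin signalling, had 0 of 30 and 0 of 32 reads spliced at its first intron (chr12:24975063-24982312, 7250 nt, in 1 of 4 transcripts) against coding introns at 0.924 and 0.923 (adjusted exact p = 6.92e-23 and 4.33e-22), while its second 5' UTR intron had 20 of 22 and 23 of 24. Add2, which encodes beta-adducin of the red cell membrane skeleton, repeated this arrangement. Its first intron (chr6:86078115-86082714, in 1 of 7 transcripts) had 7 of 58 and 6 of 31 reads spliced (adjusted exact p = 5.12e-22 and 3.68e-14), and its second, in 9 of 9 transcripts, had 57 of 57 and 32 of 32, called higher than the coding introns uninduced (adjusted exact p = 0.0206). The first has tagGTgagt and 3' score 7.35, the second ctgGTaagt and 11.76. Pttg1, the securin that holds sister chromatids together, had 3 of 52 reads spliced uninduced (chr11:43425682-43426200; coding introns 0.952, adjusted exact p = 1.22e-31) and 2 of 11 induced (coding introns 1.0, adjusted exact p = 0.00598). The Pttg1 intron is in 3 of 5 transcripts that span it, and 4 others start inside it.

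Further introns were called lower in 1 pool or both. Ndufa4, of the respiratory chain, had 0 of 30 reads spliced uninduced at an intron of 88 nt (coding introns 0.864, adjusted exact p = 1.3e-14). Oasl1, a protein of the antiviral oligoadenylate synthetase family, had 0 of 15 at 77 nt (coding introns 0.9 over only 10 reads, adjusted exact p = 0.00025). Muc13, a transmembrane mucin, had 3 of 39 at 296 nt (coding introns 0.974, adjusted exact p = 1.29e-14). Induced, the second intron of 4933434E20Rik had 1 of 43 reads spliced against 0.968 (adjusted exact p = 7.30e-37), and the first of Cabin1, which encodes an inhibitor of calcineurin, 0 of 10 against 1.0 over 11 reads (adjusted exact p = 0.000151). Prdx2, a peroxiredoxin abundant in red cells, had 5 of 13 spliced uninduced and 5 of 92 induced, a coSE of 0.0543, against coding introns at 0.896 and 0.596 (adjusted exact p = 0.00126 and 2.61e-22). Unspliced reads of these introns can come from transcripts that do not hold them. In 4933434E20Rik 7 transcripts start inside the intron, in Prdx2 2 and in Muc13 1. Of the spanning transcripts, 1 of 4 has the intron in Prdx2 and 1 of 2 in Cabin1 and Oasl1. In Oasl1 it also lies inside an exon of another transcript. The part this plays was not tested. Prkcsh, the beta subunit of glucosidase II, had 5 of 36 and 9 of 39 against 0.444 and 0.587 (adjusted exact p = 0.0403 and 0.00506); its uninduced call was lost with a minimum of 20 reads, with the first coding intron alone as comparator and with a chi-square test.

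The largest differences above the coding introns were in genes whose coding introns were unspliced in many reads. S100pbp, which encodes a protein that binds S100P, had 12 of 13 and 17 of 18 reads spliced at its first and second 5' UTR introns uninduced, against coding introns at 0.227 over 66 reads (adjusted exact p = 0.000187 and 2.63e-06). In the induced pool it had 11 of 12 and 8 of 12 against 0.106 over 47 reads (adjusted exact p = 1.09e-05 and 0.00554). Slc26a1, a sulfate transporter, had 9 of 11 against 0.167, Slc45a3, a membrane transporter, 16 of 18 against 0.333, and Smim5, a small membrane protein, 28 of 30 against 0.409, all uninduced. Mdm4, a regulator of p53, had 48 of 48 and 17 of 17 spliced against 0.897 and 0.385 and was called in the induced pool (adjusted exact p = 0.00598) and not in the uninduced one; the difference between these contrasts was not tested. With no minimum on reads, the uninduced call of Slc45a3 and the induced calls of Mdm4 and the second intron of S100pbp were lost. Csf2rb, the shared beta chain of the IL-3, IL-5 and GM-CSF receptors, had 24 of 24 and 141 of 145 reads spliced at its second intron against 0.646 and 0.714 (adjusted exact p = 0.0028 and 1.86e-12), and its paralog Csf2rb2 had 120 of 123 against 0.775 induced.

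In genes of RNA processing most members were not called. Of the 21 members tested uninduced from a list of splicing factors, helicases and RNA-binding proteins, 3 were higher and 0 lower, and of 12 induced, 2 and 0; over all introns 1.66% and 1.64% were higher and 4.42% and 4.14% lower, so that few low calls could arise in lists of this size. Clk1 and Clk4 encode kinases that phosphorylate SR splicing factors and whose own transcripts are known to retain coding introns. Clk1 had 35 of 36 and 21 of 24 reads spliced in its 5' UTR intron against 0.710 and 0.48 in its coding introns, and Clk4 44 of 45 and 23 of 23 against 0.718 and 0.676. Rbm3, a cold-induced RNA-binding protein, had 33 of 33 against 0.735 uninduced. The lists were short and chosen with earlier results known, so their counts are read only against the background given above.

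Ribosomal protein genes gave 29 members. Their median coSE was 0.952 uninduced and 0.944 induced. Uninduced, 5 of 28 tested were called lower (Rpl41, Rpl8, Rpl6, Rpl38 and Rps14) and Rps12 higher, with 54 of 56 reads spliced. Induced, 1 of 23 was lower and 1 higher. Over all introns 4.42% were called lower and 1.66% higher uninduced, and 4.14% and 1.64% induced. Ribosomal protein members had a median of 100 reads uninduced, against 17 over all members, and a call is easier to reach at depth. The deepest members overall were Eef1a1 (686 of 707 spliced), Rps19 (622 of 626), Rpl41, Ubb (583 of 591) and Rpl32 (511 of 520) uninduced. In the induced pool Rps19 had 325 of 331, Ubb 368 of 369 and Rpl32 70 of 72. Eef1a1, the elongation factor that brings aminoacyl-tRNA to the ribosome (chr9:78480689-78481638), had 79 of 82 induced against coding introns at 0.796 (adjusted exact p = 0.00246, a call lost when only the first coding intron was the comparator). Ubb, a polyubiquitin gene, has its 5' UTR intron as its only intron (chr11:62551596-62552139), so it has no comparator. Rps19 (chr7:24884668-24885135), a protein of the small subunit, is the deepest intron that ends exactly at the start codon.

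The other lists were smaller. Their counts stand beside 4.42% of all introns called lower and 1.66% higher uninduced, and 4.14% and 1.64% induced. Among chaperones, 1 of 4 members tested was lower and 1 higher uninduced, and 1 and 1 of 5 induced, the same pair of genes each time. Hspa5, the chaperone BiP of the endoplasmic reticulum, had 11 of 41 and 30 of 104 reads spliced in an intron of 82 nt (chr2:34772147-34772228) against 0.639 and 0.901 (adjusted exact p = 0.000805 and 1.57e-27). Hspa8, the constitutive cytosolic Hsc70, had 23 of 24 and 30 of 31 (chr9:40801349-40801917) against 0.488 and 0.502 (adjusted exact p = 0.000211 and 7.22e-06). Of translation factors, 0 of 6 were called uninduced, and induced 1 of 6 was lower (Eif2ak2, the RNA-activated kinase, 27 of 31) and 1 higher (Eef1a1). Oxidative phosphorylation gave 1 lower of 8 (Ndufa4) uninduced and 0 of 2 induced. Glycolysis gave 0 of 4 and then 1 lower of 2 (Pkm), and cytoskeleton 0 of 2 and 1 higher of 1 (Actb, 47 of 48 against 0.755, adjusted exact p = 0.00619). No member was called from the proteasome list (6 and 7 tested) or the chromatin list (8 and 5).

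From the list of erythroid genes, 9 had a member, and with 5 tested uninduced and 8 induced, 0 were called in the first and 2 lower and 2 higher in the second. Over all introns 4.14% were called lower and 1.64% higher induced. The erythroid members had a median of 66.5 reads induced, against 16 over all members. Alas2, the erythroid form of the enzyme that opens heme synthesis, had 7 of 7 reads spliced uninduced and 262 of 297 induced (chrX:150547486-150552148), a coSE of 0.882 (0.841 to 0.914) against 0.943 in its coding introns (adjusted exact p = 0.0122, lost with no minimum on reads). Hbb-bs, described above, was the other lower call. Slc4a1, the anion exchanger band 3 of the red cell membrane (chr11:102361464-102365056), had 71 of 76 induced against 0.744 (adjusted exact p = 0.002, lost against the first coding intron alone). Alad, the next enzyme of heme synthesis after Alas2 (chr4:62514261-62519859), had 17 of 17 and 57 of 57 against 0.770 and 0.738 (adjusted exact p = 0.213 and 8.33e-06).
The other 5 were not called. Car1, a carbonic anhydrase, had 311 of 342 uninduced and 1 of 1 induced. Tfrc, the transferrin receptor, had 11 of 12 and 183 of 189. Gata1, the erythroid transcription factor, had 22 of 23 and 33 of 33 against coding introns at 0.721 and 0.853 (adjusted exact p = 0.184 and 0.188). Ppox, an enzyme late in heme synthesis, had 25 of 38 and 24 of 36 in an intron of 104 nt against coding introns that were lower still, at 0.410 and 0.440 (adjusted exact p = 0.0952 and 0.166). Sptb, the beta-spectrin of the red cell, had 4 of 4 and 12 of 14 in an intron of 59956 nt.

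Neighbouring 5' UTR introns of 1 gene could differ widely. In the 57 genes with a first and a later member at 10 reads uninduced, the first intron had the higher coSE in 24, the later in 26, and both were equal in 7, with means of 0.788 and 0.827. Induced, the counts were 16, 20 and 10 of 46. Of the 10 genes with 3 or more members, Cenpi, a protein of the inner kinetochore, had 23 of 39, 18 of 36 and 22 of 23 reads spliced at introns 1, 2 and 3 uninduced, against coding introns at 0.980 (adjusted exact p = 8.54e-07, 1.16e-08 and 1.0). Induced, introns 1 and 2 had 12 of 14 and 10 of 15 and were not called (adjusted exact p = 0.718 and 0.1003). Its second intron, of 93 nt, has the 5' splice site gaaGTcagt with a score of 1.02, against 8.83 for tagGTgagt and 10.65 for ctgGTaagt at its neighbours. Pign, an enzyme of GPI anchor synthesis, had 43 of 44, 12 of 23 and 10 of 12 uninduced, with the second called lower (adjusted exact p = 1.27e-05). Induced it had 25 of 25, 15 of 23 and 11 of 17, with introns 2 and 3 called lower (adjusted exact p = 0.00227 and 0.00665), calls lost against the first coding intron alone. In U2af1l4, a paralog of the small U2AF subunit, the 4 introns had 0 of 13, 8 of 17, 9 of 15 and 5 of 20 spliced, and its coding introns were at 0.176. In Lcor, a corepressor of nuclear receptors, by contrast, all 5 introns lay between 0.88 and 1. Atf2, a CREB-family transcription factor, had 18 of 19, 18 of 18 and 18 of 19, Pot1a, of the telomere cap, 18 of 18, 16 of 16 and 6 of 10, and St3gal1, a sialyltransferase, 17 of 17, 18 of 18 and 16 of 16 induced; none of these was called. Adcy7 had 7 of 11, 53 of 62 and 42 of 42 uninduced against coding introns at 0.638; its introns 2 and 3 were called higher, but intron 2 lay below the first coding intron taken alone. The zinc finger gene Zfp317 had 45 of 45, 35 of 35 and 29 of 30 against 0.679, and Zfp266 27 of 27, 24 of 24 and 9 of 17. The third intron of Zfp266 was called lower than the coding introns uninduced (adjusted exact p = 0.0362), but lay above the first coding intron taken alone.

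Few members differed between the pools. Of the 324 with 10 reads in each, 3 (0.926%) were called by Fisher's exact test, with Benjamini-Hochberg adjustment over 4403 introns of the table, of which 1.61% were called in either direction. At an unadjusted p under 0.05 there were 13 members (4.01%), against 7.97% of all introns and 4.18% of coding first introns of other genes. All 3 were lower in the induced pool. Rps9, of the small ribosomal subunit (chr7:3704065-3704326), went from 255 of 270 spliced reads to 60 of 79 (adjusted exact p = 0.00194). Pkm, the pyruvate kinase of glycolysis (chr9:59656650-59665199), went from 278 of 284 to 87 of 98 (adjusted exact p = 0.0395). With no minimum on reads, 1 of the 3 calls was left, that of Rps9 (adjusted exact p = 0.0177), and Pkm had an adjusted exact p of 0.341. The coding introns of Rps9 were at 0.955 uninduced and 0.872 induced, and those of Pkm at 0.975 and 0.971. The induced intron of Pkm was also called lower than its coding introns (adjusted exact p = 0.0263), a call lost with no minimum on reads and against the first coding intron alone. None of the 3 introns is constitutive, so no constitutive member was called between the pools. In bulk RNA, a change in the mix of cells and a change within each cell cannot be told apart.

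The remaining members lay close to the line of equal coSE. Induced values were above uninduced ones in 133 members, below in 103 and equal in 88, the median difference was 0, and the means were 0.869 uninduced and 0.876 induced. A difference over 0.2 was found in 22 members (6.79%), against 138 of 1026 coding introns of the same genes (13.5%), of which 25 (2.44%) were called, and 35 of 502 coding first introns of other genes (6.97%). The difference between these shares was not tested. As a description over the 324 members, Pearson's correlation of the pools was 0.893 and Spearman's 0.632.

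**Figure D4:**
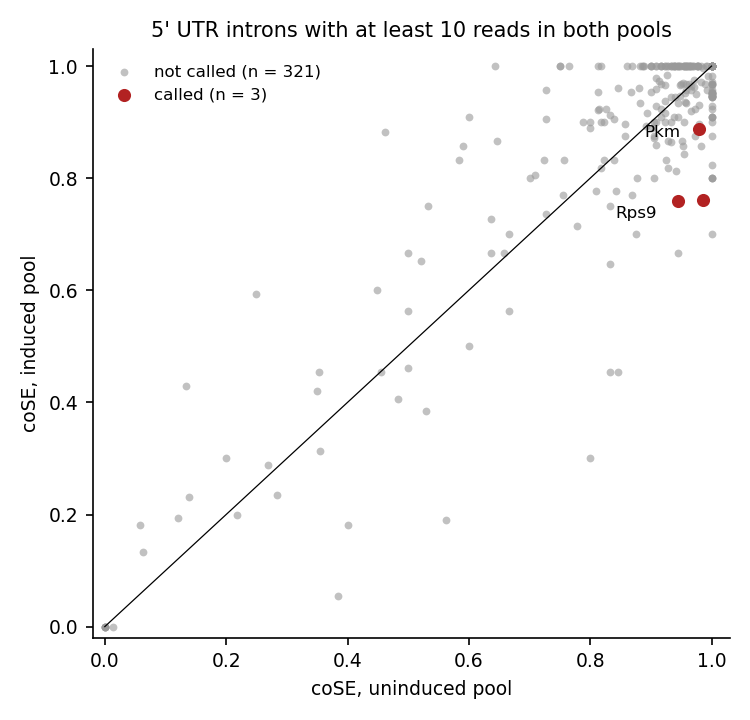
coSE in the induced pool (y axis) against the uninduced pool (x axis) for the 324 5' UTR introns with 10 reads in each, 1 point an intron, with the line of equal values. The 3 introns called different, among them those of Rps9 and Pkm, lie below the line, and the points at the lower left include Rpl41 (8 of 603 and 0 of 117 spliced) and Kidins220 (0 of 30 and 0 of 32).

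A second table counts splicing intermediates, taken here to be molecules that end at the 5' splice site after the first of the splicing reactions. Their share, intermediates over intermediates plus spliced reads, is called NIC. The table holds 346 of the 642 members uninduced and 198 of the 432 induced, among them 36 of the 69 and 17 of the 38 with a coSE under 0.5. Intermediates were rare in members: 52 of 12641 counted molecules (0.411%, 0.314 to 0.539) uninduced and 19 of 5981 (0.318%, 0.204 to 0.496) induced. Coding introns of the same genes had 1394 of 43339 (3.22%) and 1334 of 23077 (5.78%), and coding first introns of other genes 88 of 18956 (0.464%) and 70 of 9652 (0.725%). A NIC above 0 was found in 27 members (7.80%) uninduced and 13 (6.57%) induced, against 583 of 1355 coding introns (43.0%) uninduced.

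Against the summed coding introns of the same transcript, NIC was lower in 8 of 283 members (2.83%) uninduced and in 7 of 159 (4.40%) induced, where Fisher's exact test called 0.378% and 1.04% of all introns of the table lower. None was called higher, against 1.23% and 1.85% of all introns. With a chi-square test fewer members were called lower in each pool. Coding first introns of other genes gave 2 lower of 450 (0.444%) and 7 of 247 (2.83%). Against the unweighted mean NIC of the coding introns, 214 members lay below uninduced, 11 above and 58 level. For coding first introns the counts were 321, 19 and 110. Car1 had 0 intermediates beside 311 spliced reads, against 63 of 384 in its coding introns (adjusted exact p = 4.34e-15). Rps14 had 0 beside 373 spliced reads (46 of 1006, adjusted exact p = 0.000134), Rpl32 0 beside 511 (22 of 909, adjusted exact p = 0.00781) and Eef1a1 0 beside 686 (39 of 2929, adjusted exact p = 0.0403). Ermap, an erythroid membrane protein, had 2 of 226 against 86 of 935 uninduced and 1 of 259 against 116 of 1244 induced (adjusted exact p = 0.0002 and 6.10e-07). Alas2 had 0 beside 253 spliced reads induced, against 210 of 1357 in its coding introns (adjusted exact p = 4.31e-15). The others called were Asns, Bclaf1 intron 1 and Smim5 uninduced, and Apol11b, Csf2rb intron 2, Csf2rb2, Kel and Srsf5 induced. Kel, whose intron begins with GC, had 1 of 120 against 72 of 574. The 5' splice sites of Car1, Rpl32, Eef1a1 and Alas2 lay 67, 50, 86 and 111 nt from the start. An intermediate there would be no longer than this distance. Within 100 nt all introns together had 1 intermediate in 12733 molecules uninduced and 0 in 3942 induced. A count of 0 this near the start therefore cannot be told apart from an effect of position.

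The largest NIC values among members with at least 3 intermediates were in introns far from the transcript start. Jmjd1c, a histone demethylase family gene, had 5 of 18 at its first intron (0.278), Nbr1, an autophagy receptor gene, 3 of 13 at intron 3 (0.231), and Adcy7, an adenylate cyclase gene, 9 of 43 at intron 3 (0.209; chr8:88295680-88306349), where its second had 0 of 43. Their 5' splice sites lay 562, 614 and 427 nt from the start. The deepest members at 0 were Eef1a1, Rps19 and Ubb, with 686, 622 and 583 spliced reads. Between the pools 0 of 139 members were called by Fisher's exact test, where 0.0981% of all introns were called. At an unadjusted p under 0.05 there were 0 members, against 1.67% of all introns and 0 of 243 coding first introns of other genes. Of the 139 members, 123 had a NIC of 0 in both pools, so the test could not call them.

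NIC moved with the distance from the transcript start to the 5' splice site, which is short in members. Uninduced, members whose 5' splice site lay within 100 nt of the start had 0 of 5460, which allows up to 0.0549%, and all coding introns of the table there had 0.0152%. Beyond that, up to 200 nt members had 0.136% and all coding introns 0.327%, from there to 300 nt 0.631% and 1.64%, to 500 nt 1.24% and 2.70%, and to 1000 nt 5.46% (20 of 366) and 3.87%. Coding introns of the same genes had 0 of 604 in the first class and then 0.565%, 2.95%, 2.95% and 3.48%. Coding first introns had 0.017%, 0.135%, 0.770%, 1.52% and 3.20% in the same classes. Induced, members had 0 of 1594, then 0.0426%, 0.712%, 1.13% and 1.67% (2 of 120, interval 0.458 to 5.87), all coding introns 0.832%, 1.61%, 4.33% and 6.81% from the second class on, and those of the same genes 2.21%, 3.34%, 3.54% and 7.61%. The 1 member beyond 1000 nt in each pool had 0 of 36 uninduced and 0 of 31 induced. Of the members called lower, 2 uninduced and 2 induced had a 5' splice site over 200 nt from the start. The part of distance in the low NIC of members was not tested.

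**Figure D5:**
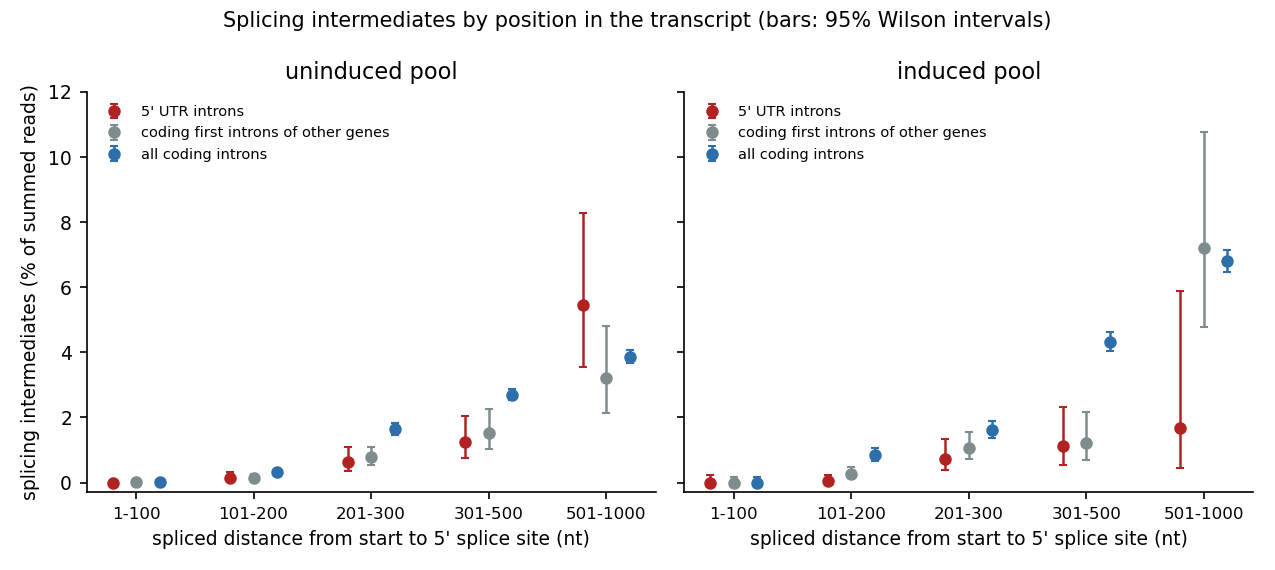
Pooled NIC (y axis, percent of molecules) by the distance from the annotated transcript start to the 5' splice site (x axis, classes in nt) for 5' UTR introns, all coding introns of the table and coding first introns of other genes in each pool, with 95% Wilson intervals that cover counting error only. NIC of 5' UTR introns goes from 0 within 100 nt to 5.46% in the class that ends at 1000 nt in the uninduced pool; induced, that class has 2 of 120 molecules (1.67%) and its interval overlaps that of the class before it.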

How the data were processed

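Nascent long-read RNA of uninduced and induced MEL cells was analysed from 2 tables deposited by the authors, each with 1 line per intron and condition (112496 lines in the splicing table, 8576 lines on 6537 introns in the intermediate table). Per the file headers the values are raw counts of spliced and unspliced reads, counts of intermediates, NIC as a fraction, GC content as a percent and a score for each splice site. Submitters' processing notes name cutadapt, minimap2, SAMtools, bedtools and Bowtie and the builds mm10 and dm3, with no roles. How unspliced counts were merged, how intermediates were recognised, which libraries were summed, how splice sites were scored and whether amplified copies were removed are not given in the sources used here. It is assumed that GC content refers to the intron. Introns were placed on GENCODE M21 (GRCm38) after shifting the listed start by 2 and the listed end by 1 to the first and last intron base. Another 26 introns not in the annotated transcript got no region.

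coSE was computed for introns with at least 10 reads. Tests were Fisher's exact tests (two-sided, SciPy 1.17.1) adjusted by Benjamini-Hochberg over the whole table, with a threshold of 0.05, and were tested on simulated data. The simulated reads were independent and deeper than the medians here. They could not show what molecules that cover several introns do to the p-values. Wilson 95% intervals and floors of 3 counts cover counting error only, since PCR copies are not independent molecules. Each condition is 1 pool, so library depths and replicate spread were not used. Members and gene lists were chosen with earlier results of these data known. Named are members called between pools, those farthest from their coding introns among the called (5 a side uninduced, 3 induced), the 5 deepest, the 5 deepest under 0.2, the 3 highest and 3 deepest zero NIC values, genes with 3 or more members, the erythroid list, and the longest and shortest; other members named were chosen after their values were seen. The values of 1 member called between pools are not reported here. Samples with an integrated HBB gene and PRO-seq were not analysed here. Analyses used Python 3.11.15, pandas 2.3.3, numpy 2.4.6 and matplotlib 3.10.9. Alternatives tried were other read minimums, another comparator, a chi-square test, subsets by annotation, length or gene class, and leaving out Rpl41 with Hbb-bs.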

Additional observations from a re-analysis of the deposited data

How the results depend on the processing

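No paired analysis was possible because each condition is 1 summed line, with no replicate columns; leaving out replicates was not run for the same reason. Subsets by annotation, by distance from the start and without Rpl41 and Hbb-bs were chosen after seeing the data. Of 108 recomputed values, 71 stayed within the margin set for a change and 37 moved; of 317 recomputed contrasts of named members, 291 kept direction and side of the threshold, 16 lost the call, 8 gained it and 2 reversed. Both reversals came with the first coding intron alone as comparator: Adcy7 intron 2 at -0.117 and Zfp266 intron 3 at 0.0749. The share of members with a coSE under 0.2 became 8.54% uninduced and 7.11% induced with no minimum on reads, and 1.58% and 1.78% for constitutive members. The pooled share of spliced reads (85.9% uninduced) became 86.9% at 20 reads, 84.6% with no minimum, 86.6% without ribosomal protein genes, 83.5% up to 5000 nt, 92.4% for constitutive members, 89.9% without members inside an exon, 79.6% without those holding a transcript start and 88.5% without Rpl41 and Hbb-bs. Induced (83.1%), it became 81.0% at 20 reads, 78.8% up to 5000 nt, 83.5% for constitutive members (Hbb-bs among them), 85.1% outside exons, 84.8% without a start inside and 87.5% without Rpl41 and Hbb-bs. Low calls against coding introns numbered 25 and 16 at 20 reads, 7 and 6 for constitutive members and 20 and 10 without a start inside, uninduced and induced; high calls were 12 and 5 for constitutive members, 12 and 10 without a start inside, and, induced, 11 at 20 reads and 9 with no minimum. Low NIC calls were 5 and 4 with a chi-square test, 3 and 3 for constitutive members and 2 and 2 over 200 nt from the start. Calls between pools were 1 with no minimum and 0 for constitutive members. Fewer introns enter each subset, and beyond that the cause was not tested. At the median depths of 17 and 16 reads a coSE under 17.65% and 18.75% cannot be told from 0.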
